A study of Rattus norvegicus with 30 samples.

Results

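Primary rat hepatocytes treated for 24 h with 100 uM methapyrilene were compared with vehicle-treated hepatocytes harvested at the same time. The comparison used 10 of the 30 arrays of the study: the 5 labelled as methapyrilene HCl at 100 uM for 24 h, and the 5 labelled as 1% DMSO for 24 h. The other 20 arrays held 3 uM methapyrilene at 24 h and all 3 treatments at 48 h, 5 arrays each. All groups shared 1 source of cells, frozen hepatocytes of male Sprague Dawley rats bought from a supplier, which were thawed, plated and dosed on day 3 of culture. Each array came from 1 well, and the labels call the wells independent cultures without naming animals, and the p-values therefore cover only the spread from well to well. DMSO, the solvent, served as the vehicle. The treatment protocol describes concentrated dosing solutions made with DMSO that were then diluted, so the share of DMSO that reached the medium is uncertain.

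Methapyrilene is an antihistamine of the H1 class formerly used in sleep aids and taken off the market because it caused liver cancer in rats. The hepatocyte is the liver cell that breaks down amino acids, detoxifies ammonia through the urea cycle, makes glucose, bile acids and most plasma proteins, and oxidises foreign compounds with cytochrome P450 enzymes. Several of these functions depend on nuclear receptors such as CAR and PXR, and the same cells answer damage to DNA, to proteins or to their redox balance through p53, HSF1, ATF4 and NRF2, each of which switches on its own set of genes.

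Every value below is a MAS5 signal, the linear brightness that the array software computes for a probe set, or a difference between groups in the log2 of that signal with its standard error. Each group had n = 5. A gene was called higher or lower when limma gave an adjusted p under 0.05 over the 10222 genes tested. In the 10 arrays of the comparison, median signals lay between 361.7 and 425.1. Signals near or below that range are dim, and the size of a fold change there is uncertain. The first principal component, with 25.31% of the variance, put the 5 arrays of 100 uM at 24 h between 23.4 and 25.9 and the 5 DMSO arrays between -16.7 and -9.35. The 3' to 5' signal ratio of beta-actin, a measure of RNA length, was 2.80 to 3.27 in DMSO and 2.74 to 2.84 at 100 uM. Replicates of a gene have no order, but for several liver genes DMSO replicates 1 and 2 were brighter than replicates 3, 4 and 5, as the values below show.

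At 100 uM, 2029 genes were called higher (19.8% of those tested) and 1618 lower (15.8%), or 35.7% in either direction. Large changes were more often downward: 396 of the genes called higher and 573 of those called lower differed by at least 1.5-fold, and 83 and 167 by at least 2-fold. The median log2 fold change over all genes was 0.043. In 1478 genes (14.5%) all 5 arrays of 100 uM lay above all 5 DMSO arrays, and in 1218 (11.9%) all lay below. Bright genes were called more often than dim ones. Of the 2556 brightest genes 29.1% were called higher and 23.9% lower, against 7.6% and 5.6% of the 2556 dimmest. The genes were therefore not equally open to a call. Every count of a list below stands beside the shares of all genes, 19.8% higher and 15.8% lower. The lists were not matched to other genes by brightness.

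**Figure D1:**
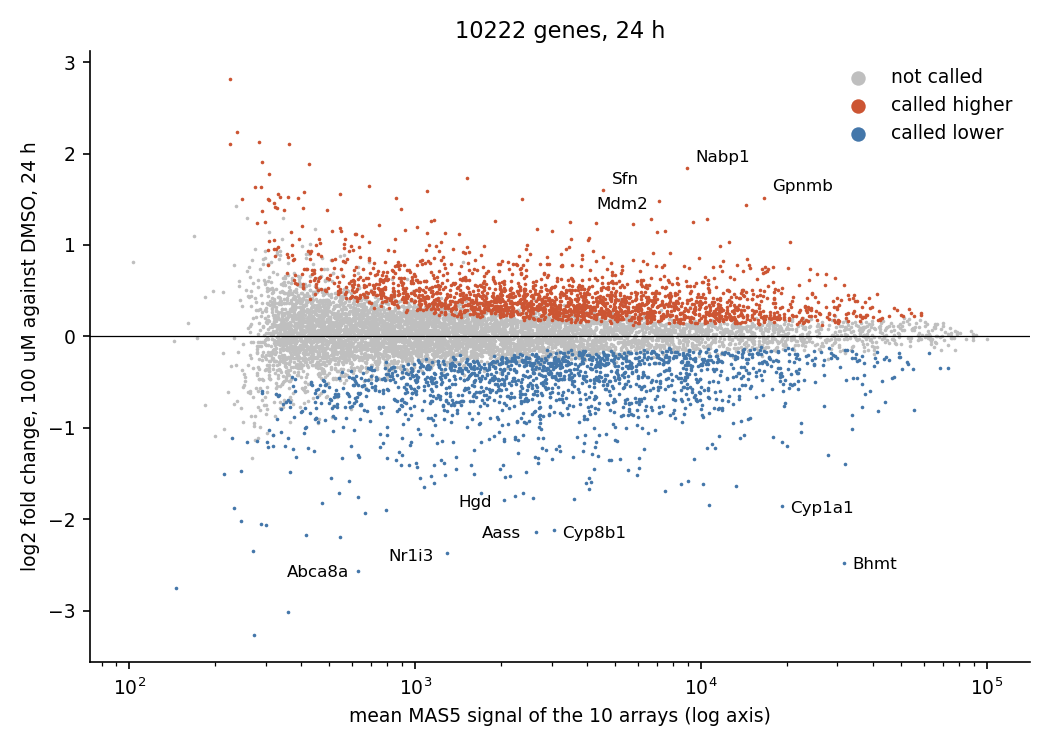
Log2 fold change of 100 uM against DMSO at 24 h for each of the 10222 genes tested, against the mean signal of the 10 arrays on a log axis. Orange and blue points are the 2029 genes called higher and the 1618 called lower, and grey points were not called. Bhmt, Aass and Cyp8b1 lie among the lowest bright genes. Nr1i3, whose treated wells were near the array medians, lies between Bhmt and Aass in log2 fold change.

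Among the genes named for their size, the largest decrease whose treated wells all stayed above the array medians was that of Bhmt, betaine-homocysteine methyltransferase, which returns homocysteine to methionine with a methyl group from betaine. Its signals were 61437, 53327, 52305, 47566 and 53547 in the DMSO wells and 10401, 11173, 8810.3, 9654 and 8253 at 100 uM. The groups were far apart and the wells within each were close, with a log2 fold change of -2.48 ± 0.11 (adjusted p = 2.85e-18), or 5.57-fold lower. Aass, the first enzyme of lysine breakdown, gave 4988, 4651, 4049.5, 3741 and 4089 in DMSO and 913, 1098, 896, 1069.7 and 914 at 100 uM (-2.14 ± 0.094, adjusted p = 2.85e-18). Cyp8b1, the hydroxylase that directs bile acid synthesis to cholic acid, gave 5737, 5664, 4725, 4069 and 4623 against 1167, 1118, 1128, 1028 and 1227 (-2.12 ± 0.087, adjusted p = 6.96e-19). Every well of 100 uM lay below every DMSO well for both genes, as the rule for naming genes by size required.

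Nr1i3 encodes CAR, the nuclear receptor that induces drug-metabolising enzymes. Its signals were 2854, 2653, 1675, 1989.8 and 1665 in DMSO and 333, 416, 406, 339.8 and 598 at 100 uM, a log2 fold change of -2.37 ± 0.16 (adjusted p = 1.70e-13). DMSO replicates 1 and 2 were the brightest, and all treated wells lay far below the dimmest DMSO well, 4 of them at or below the upper end of the array medians. Cyp1a1, the dioxin-inducible P450, fell from 31866, 30914, 28009, 27579 and 32243 to 7745, 8353, 8024, 8205 and 9147 (-1.86 ± 0.08, adjusted p = 2.47e-18). Steap4, a metalloreductase of iron and copper, fell from 15010.2, 15876, 17373, 19142 and 15924 to 4682, 4374, 4639, 4453 and 5011 (-1.84 ± 0.12). For these 2 genes the spread within a group was small beside the distance between the groups.

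Hgd, which opens the ring of homogentisate in tyrosine breakdown, changed by -1.80 ± 0.11, with signals of 3269.8, 2978, 3329, 3495 and 2792 in DMSO and 881, 899.7, 858, 1052 and 878 at 100 uM. Hao2, a peroxisomal oxidase of hydroxy acids, changed by -1.78 ± 0.092 (adjusted p = 1.58e-16). The rule for naming the 12 largest decreases also picked genes whose treated wells were dim. Abca8a, an ABC transporter, gave 1341, 1072, 1264, 882 and 796 in DMSO and 81, 153, 283, 232 and 212 at 100 uM (-2.57 ± 0.23). Pik3c2g, a lipid kinase, changed by -2.20 ± 0.26, Fmo1, a flavin monooxygenase, by -1.93 ± 0.39, and Ehhadh, the peroxisomal bifunctional enzyme of fatty acid oxidation, by -1.90 ± 0.17. For these all treated wells lay below all DMSO wells, which the rule required, and the size rests on signals near or below the array medians.

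**Figure D2:**
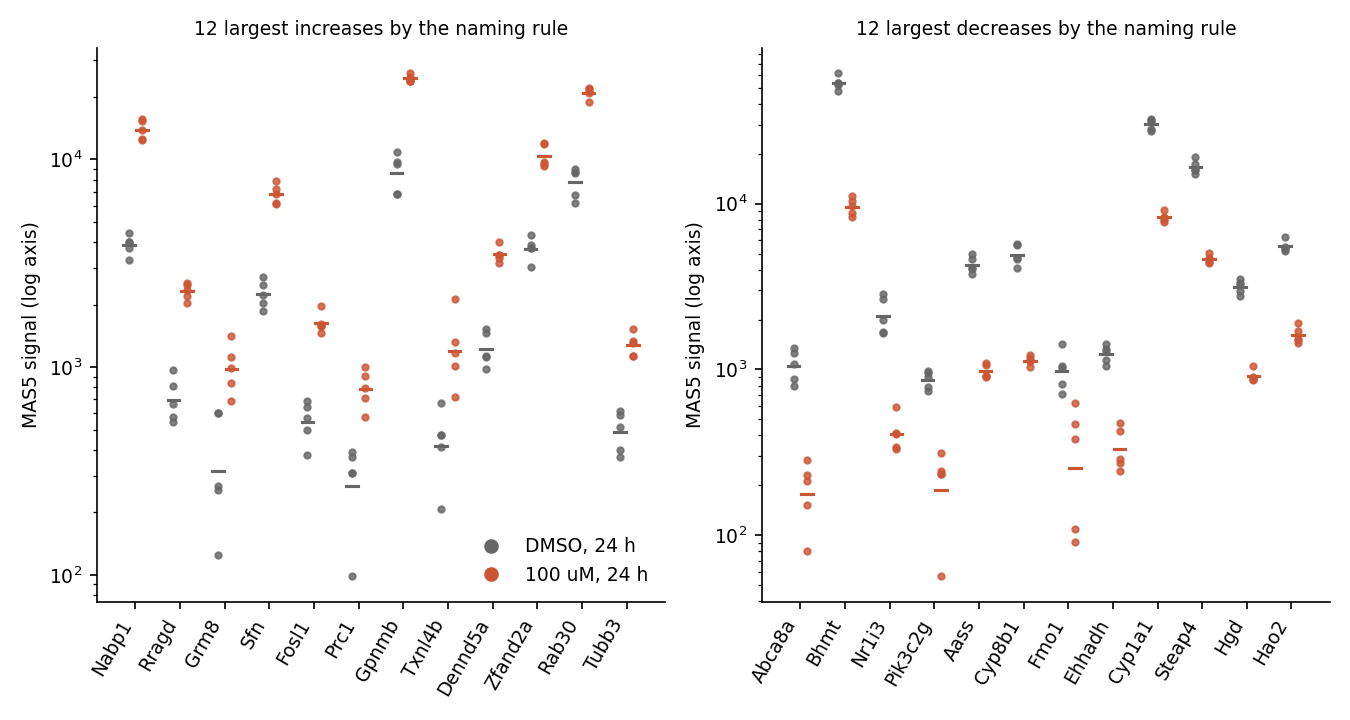
MAS5 signal of each well on a log axis for the 12 largest increases and the 12 largest decreases named by the rule, with DMSO wells in grey, 100 uM wells in orange and a short line at the geometric mean of each group. The groups do not overlap in any of the 24 genes, which the rule required, and the wells of Grm8, Prc1, Pik3c2g and Fmo1 are widely spread.

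Genes that break down amino acids were lower in each of the 5 lists that held them. Of the lysine and tryptophan genes 10 of 14 were called lower and 0 higher, with a median log2 fold change of -0.89. Below Aass in size came Kynu and Afmid, both of the kynurenine route of tryptophan. Kynu, kynureninase, gave 5657, 5986, 6641, 6693 and 5873 in DMSO and 2167, 2026, 1861, 1809 and 1825 at 100 uM (-1.67 ± 0.082, adjusted p = 4.66e-17). Afmid, the formamidase of an earlier step, changed by -1.46 ± 0.097, and Qprt, which leads from this route to NAD, by -0.94 ± 0.07.

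Of the methionine and choline genes 11 of 15 were called lower and 0 higher (median -0.61). Next to Bhmt stood its neighbour Bhmt2, which methylates homocysteine from S-methylmethionine, with 50519.9, 44512, 47745, 41938 and 47109 in DMSO and 16307, 18653, 16284, 17885 and 18668 at 100 uM (-1.40 ± 0.083, adjusted p = 3.81e-15). Sardh, which demethylates sarcosine in the mitochondrion, changed by -1.29 ± 0.083. Cth, cystathionine gamma-lyase, which yields cysteine, changed by -0.90 ± 0.076. Genes of remethylation, choline oxidation and transsulfuration were thus all among those that fell.

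Of the phenylalanine and tyrosine genes 6 of 6 were called lower (median -0.62). Besides Hgd these included Fah, the last enzyme of the route, with 20064, 20095, 18593, 18929 and 18492 in DMSO and 9679, 9196, 9459, 8538 and 8629 at 100 uM (-1.08 ± 0.059, adjusted p = 4.88e-16). Tat, the tyrosine aminotransferase that starts the route, changed by -0.66 ± 0.059, and Gstz1, the isomerase between Hgd and Fah, by -0.58 ± 0.099. Of the glycine, serine, histidine and proline genes 12 of 16 fell and 1 rose. Ftcd, which passes a carbon unit of histidine to folate, gave 23545, 22114, 18506, 17456 and 18806 in DMSO and 6828, 6439, 5689, 5871 and 7378 at 100 uM (-1.64 ± 0.10, adjusted p = 1.23e-14). Gldc and Amt, 2 parts of the glycine cleavage system, changed by -1.38 ± 0.12 and -0.77 ± 0.079, and Dao, D-amino acid oxidase, by -1.20 ± 0.092. The member that rose was Gcat, of threonine breakdown (0.30 ± 0.092, adjusted p = 0.0101), whose groups overlapped and whose call was lost without DMSO replicate 3 (adjusted p = 0.0615).

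Of the branched-chain amino acid genes 17 of 18 were called lower and 0 higher, with a smaller median of -0.43. Bckdha, a subunit of the branched-chain ketoacid dehydrogenase, gave 2926, 2887, 2889.9, 2755 and 2615 in DMSO and 1279, 1291, 1310.5, 1379.7 and 1134 at 100 uM (-1.14 ± 0.081, adjusted p = 3.06e-13), and its partner Bckdhb changed by -0.59 ± 0.073. Aldh6a1, of valine breakdown, changed by -1.09 ± 0.052 (adjusted p = 2.14e-17), and Mmut, the methylmalonyl-CoA mutase, by -0.68 ± 0.075. In the urea cycle and its carriers 9 of 11 were called lower and 1 higher (median -0.37).

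Arg1, arginase, which releases urea, gave 75768, 68725, 71054, 64690.4 and 74825 in DMSO and 41848, 43382, 37966, 38355 and 40909.8 at 100 uM (-0.81 ± 0.075, adjusted p = 1.67e-10). Cps1, which fixes ammonia at the entry of the cycle, changed by less (-0.36 ± 0.081, adjusted p = 0.000625), with 68441, 60678, 59537, 56071 and 66370.1 against 44077, 52488, 48569, 46983 and 49979.6, and the mean of its probe sets gave a larger change of -0.81. Otc, the next step, changed by -0.90 ± 0.18. Slc25a15 and Slc25a13, the mitochondrial ornithine and aspartate carriers, changed by -0.69 ± 0.08 and -0.60 ± 0.058, and Gls2, the liver glutaminase, by -0.71 ± 0.11. Asl, argininosuccinate lyase, was the member called higher (0.24 ± 0.06, adjusted p = 0.00207), with 1 DMSO well among the treated wells, and the call was lost when arrays were centred on their medians (adjusted p = 0.069).

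**Figure D3:**
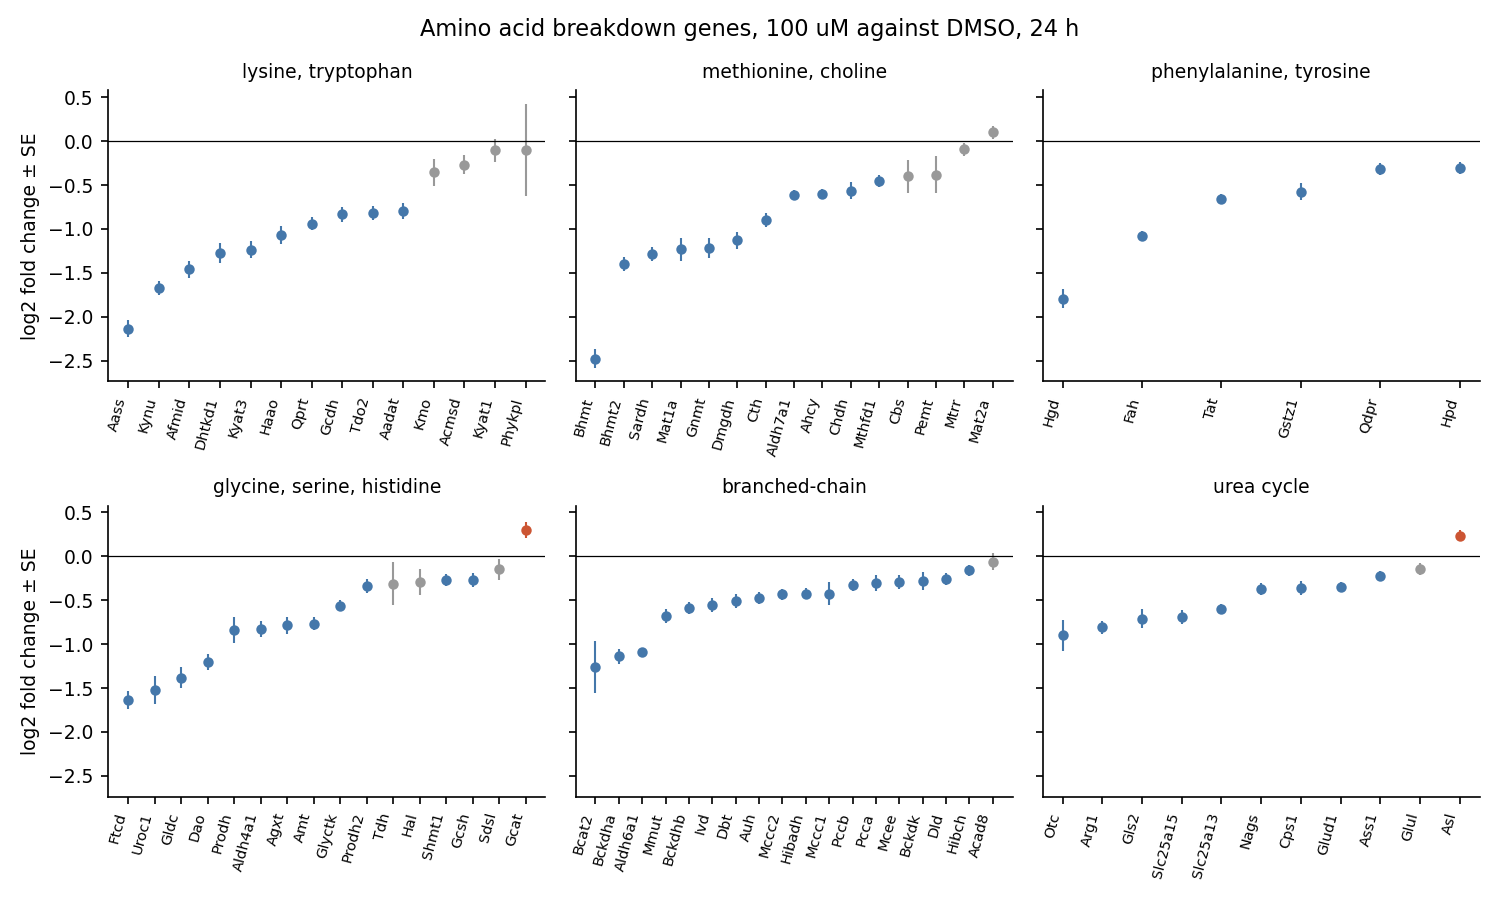
Log2 fold change ± SE of 100 uM against DMSO at 24 h for every tested gene of 5 amino acid lists and of the urea cycle, with genes called lower in blue, called higher in orange and not called in grey. Of the called genes, Gcat and Asl lie above 0 and the others below, and Bhmt and Aass lie lowest.

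Genes of glucose production also fell. Of the genes that make and handle glucose, 10 of 16 were called lower and 0 higher (median -0.71). Pc, pyruvate carboxylase, the entry step, gave 4034, 3533, 3112, 2643 and 2599 in DMSO and 1137, 1207, 919, 1050.4 and 1170.1 at 100 uM (-1.52 ± 0.10, adjusted p = 8.83e-14). Fbp1, fructose bisphosphatase, changed by -1.12 ± 0.091, with 18136, 17322, 20534, 18456 and 19173 against 9552, 9364, 8031, 7793 and 8524. Slc37a4, which carries glucose 6-phosphate to the last enzyme, changed by -1.11 ± 0.07, and Gckr, the regulator of glucokinase, by -1.13 ± 0.075. Of the glycolysis and hypoxia genes 7 of 21 were called higher and 3 lower, and the lower calls were 0 without DMSO replicate 1 or without 100 uM replicate 2. Slc2a1, the glucose transporter GLUT1, gave 2546, 2323, 2231, 2012 and 2091 in DMSO and 3024, 3083, 3928, 3357 and 4215 at 100 uM (0.64 ± 0.11, adjusted p = 2.92e-05). Ndrg1, a hypoxia-responsive gene, changed by 0.91 ± 0.11, the enolase Eno2 by 1.27 ± 0.16 and the phosphofructokinase Pfkp by 0.61 ± 0.092. Egln3, a prolyl hydroxylase that hypoxia also induces, was called lower (-0.25 ± 0.085, adjusted p = 0.0216), with overlapping groups and a call that 4 of the alternatives did not give (adjusted p up to 0.0925).

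Bile acid synthesis was lower across its steps: 12 of 15 genes were called lower and 0 higher (median -0.76). Cyp7a1, the rate-limiting enzyme, gave 634, 664, 833, 1060.4 and 670.2 in DMSO and 225, 513, 177, 571 and 215 at 100 uM (-1.33 ± 0.25, adjusted p = 7.03e-05). Treated replicates 1, 3 and 5 were dim and replicates 2 and 4 brighter, and its standard error was larger than that of Cyp8b1. Acox2 and Hsd17b4, which shorten the side chain in the peroxisome, changed by -1.75 ± 0.10 and -0.58 ± 0.054, and the acyl-CoA synthetase Slc27a2 by -0.76 ± 0.065. Of the hepatocyte transporters 9 of 16 were called lower and 3 higher.

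Slc10a1, the sodium-dependent bile salt uptake transporter, gave 7203, 7380.3, 5001, 5356 and 4978 in DMSO and 1828, 2338, 1871, 1825 and 1851 at 100 uM (-1.61 ± 0.13, adjusted p = 5.10e-12), again with DMSO replicates 1 and 2 the brightest. Slco1b2, an uptake transporter of organic anions, changed by -1.27 ± 0.14. The canalicular pumps moved in both directions. Abcb11, the bile salt export pump, fell from 15729, 14907, 15300.1, 15136 and 14093 to 8121, 8701, 8709.8, 8603 and 8753 (-0.81 ± 0.081), and Abcb4, which exports phosphatidylcholine, changed by -0.63 ± 0.069. Abcc2, which exports conjugates, was higher in every treated well (0.42 ± 0.063, adjusted p = 1.66e-06), with 30912, 30838, 36482, 31261 and 35503 in DMSO and 46340.2, 49697, 43430.2, 42452 and 39478 at 100 uM.

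The enzymes that oxidise and conjugate foreign compounds were lower. Of the cytochrome P450 genes outside the bile acid and AhR lists 19 of 30 were called lower and 0 higher (median -0.53). Cyp4f4 gave 2443, 2333, 2109.7, 2079 and 2414 in DMSO and 908, 974, 755, 889.6 and 770.3 at 100 uM (-1.41 ± 0.10, adjusted p = 7.32e-13). The fatty acid hydroxylases Cyp4a1 and Cyp4a3 changed by -1.31 ± 0.092 and -0.97 ± 0.081, and Cyp2d2 by -0.78 ± 0.064. Cyp2e1, the ethanol-inducible form, changed by less (-0.45 ± 0.13, adjusted p = 0.00682). Rat P450 subfamilies hold near-identical genes, and a probe set named for 1 member may also read its neighbours.

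Of the CAR and PXR genes 9 of 12 were called lower and 0 higher. Nr1i2, the receptor PXR, gave 4556, 3867, 4267, 3759.5 and 3699.8 in DMSO and 2477, 2533, 2677, 2535 and 2274 at 100 uM (-0.69 ± 0.08, adjusted p = 1.97e-08). The CYP3A forms differed in size: Cyp3a18 changed by -0.78 ± 0.097, while Cyp3a23-3a1 changed by -0.19 ± 0.068 (adjusted p = 0.0309), with overlapping groups and a call that 7 alternatives did not give (adjusted p up to 0.097). Aldh1a1, a retinaldehyde dehydrogenase, changed by -0.88 ± 0.083. Of the 5 tested genes of the AhR list only Cyp1a1 and Cyp1a2 were called, both lower. Cyp1a2 gave 19077, 18968, 15829.5, 14466 and 15353 in DMSO and 10639, 9783, 9502, 9992 and 11939.6 at 100 uM (-0.69 ± 0.096, adjusted p = 6.73e-07).

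Of the glutathione transferases 10 of 19 were called lower and 1 higher, and of the other conjugation enzymes 15 of 26 and 2. Gstt3 gave 3892, 3462, 3935, 4101 and 3714 in DMSO and 1895, 1945, 1696, 1818 and 1483 at 100 uM (-1.12 ± 0.094, adjusted p = 1.60e-11), and Gstm7 changed by -1.38 ± 0.12. Gsto1, an omega-class transferase, was the member called higher (0.26 ± 0.047, adjusted p = 3.23e-05). Sult1b1, a sulfotransferase, changed by -0.72 ± 0.079, and Glyat, which couples glycine to organic acids, by -1.35 ± 0.16. Papss1, which makes the sulfate donor for sulfotransferases, was called higher (0.39 ± 0.078, adjusted p = 0.000126).

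Of the fatty acid oxidation genes 19 of 26 were called lower and 2 higher (median -0.45). Etfdh, which passes electrons from the acyl-CoA dehydrogenases to ubiquinone, gave 9790.0, 8301, 8533, 7734 and 8435 in DMSO and 5139, 5113, 5319, 5479 and 5407 at 100 uM (-0.69 ± 0.077, adjusted p = 7.98e-09). Acads, the short-chain dehydrogenase, changed by -0.63 ± 0.074, and Eci2, an isomerase for unsaturated fatty acids, by -0.58 ± 0.064. The oxidative phosphorylation genes, which take the electrons onward, were called lower in 8 of 65 cases, or 12.3% against 15.8% of all genes, and higher in 0 (median -0.034). With quantile normalization 13 of them were called lower.

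Synthesis and export of lipids were lower in part. Of the genes that make fatty acids and triglycerides, 9 of 21 fell and 2 rose. Thrsp, a regulator of lipogenesis, gave 26169, 24292, 32034, 30899 and 26105 in DMSO and 11824, 13034, 12877, 11149 and 11439 at 100 uM (-1.20 ± 0.10, adjusted p = 1.49e-11). Acaca, acetyl-CoA carboxylase, changed by -0.85 ± 0.076 (-0.51 as the mean of its probe sets) and Acly, which supplies cytosolic acetyl-CoA, by -0.49 ± 0.073. Of the apolipoprotein and lipid transport genes 7 of 17 were called lower and 0 higher. Mttp, which loads lipid onto apolipoprotein B, gave 11359.7, 11188, 10093, 10058 and 9969 in DMSO and 5865, 5664, 5084, 6023 and 5628 at 100 uM (-0.90 ± 0.078, adjusted p = 3.56e-11), and Apob itself changed by -0.77 ± 0.089 (-0.41 as the mean of its probe sets). Lcat, which esterifies plasma cholesterol, changed by -0.68 ± 0.076.

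Cholesterol synthesis went the other way at this time, with 11 of 20 genes called higher and 2 lower (7 higher with arrays centred on their medians). Cyp51, the lanosterol demethylase, gave 7405, 7681, 8467, 9982 and 7613 in DMSO and 13380.4, 15329, 13493, 13056 and 14025 at 100 uM (0.76 ± 0.079, adjusted p = 2.21e-09). Msmo1, the next demethylation step, changed by 0.69 ± 0.077 and Idi1, the isopentenyl diphosphate isomerase, by 0.63 ± 0.07. Hsd17b7, a reductase of a later step, was called lower (-0.53 ± 0.091, adjusted p = 1.49e-05), but another of its probe sets was called higher, and their mean gave no call (adjusted p = 0.222). The sterol element was searched as TCACNCCAC on both strands of the 250 bases before the start. It was present in 0 of 16 tested members with a promoter in RefSeq and 0 of the 9 that rose, against 0.9% of tested genes.

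Secreted proteins fell in part. Of the coagulation genes 13 of 17 were called lower and 0 higher (median -0.35). Klkb1, prekallikrein of the contact pathway, gave 2987, 3723, 1994, 2350.2 and 1961 in DMSO and 1134, 624, 561, 818 and 841 at 100 uM (-1.71 ± 0.19, adjusted p = 5.70e-09). Serpinf2, the inhibitor of plasmin, changed by -1.10 ± 0.089, and its target's precursor Plg, plasminogen, by -0.57 ± 0.081. Of the other plasma proteins 10 of 23 fell and 0 rose, among them complement C5 (-0.96 ± 0.11) and C3 (-0.52 ± 0.064). Alb, albumin, was not called: its signals were 92116, 72850.2, 85447, 78396 and 101045 in DMSO and 103504, 113035, 70718, 82494 and 80496 at 100 uM (0.055 ± 0.13, adjusted p = 0.79), at the top of the signal range.

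The acute phase list was mixed, with 8 of 21 lower and 1 higher. Hamp, which encodes hepcidin, the hormone that closes the iron exporter ferroportin, was its member that rose, from 2342, 2517, 2555, 2618 and 2637 to 5944, 4936, 8300.3, 4925 and 6277 (1.24 ± 0.14, adjusted p = 1.50e-08). Other iron genes fell. Hjv, the co-receptor upstream of hepcidin, changed by -0.71 ± 0.065, Slc40a1, ferroportin itself, by -0.44 ± 0.057 and Aco1, the iron regulatory protein and cytosolic aconitase, by -0.76 ± 0.088. In the iron list as a whole 6 of 13 were called lower and 2 higher.

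Transcription factors of the hepatocyte were lower in 9 of 17 cases and higher in 0. After Nr1i3 and Nr1i2 came Nr1h3, the sterol receptor LXR-alpha, with 5272, 5520.4, 5596, 5615 and 5346 in DMSO and 3193, 3526, 3216, 3033 and 3536 at 100 uM (-0.73 ± 0.065, adjusted p = 6.34e-11), and Nr2f2, the receptor COUP-TFII (-0.70 ± 0.079, or -0.45 as the mean of its probe sets). Hnf4a, a central regulator of hepatocyte identity, changed by less (-0.37 ± 0.08, adjusted p = 0.000424). Neither of its other 2 probe sets past the filter was called, and the mean of the 3 gave -0.20. The hormone axis of growth gave 4 of 12 called lower and 0 higher, with Igf1, the growth factor that the liver secretes, at -0.46 ± 0.079 (-1.09 as the mean of its probe sets) and Ghr, the growth hormone receptor, at -0.33 ± 0.064.

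Cell contacts and the cytoskeleton moved apart. Of the junction genes 9 of 17 were called lower and 1 higher. Gjb1, connexin 32 of the hepatocyte gap junction, gave 15164, 14266, 14810.0, 14124 and 14586 in DMSO and 8759, 8848, 8491, 7548 and 8299 at 100 uM (-0.80 ± 0.079, adjusted p = 5.70e-10), and the cadherins Cdh1 and Cdh2 changed by -0.57 ± 0.079 and -0.69 ± 0.072 (-0.42 for Cdh2 as the mean of its probe sets). Of the cytoskeletal genes 12 of 22 were called higher and 1 lower. Among them were the tubulins. Tubb6 gave 8137, 8214, 9009, 8975 and 8896 in DMSO and 15472, 15944, 16056, 14650.0 and 14317 at 100 uM (0.82 ± 0.066, adjusted p = 5.80e-12), Tuba4a changed by 0.73 ± 0.082, Tubb5 by 0.50 ± 0.063 and Tubb3, whose DMSO wells were dim, by 1.39 ± 0.18. Vim, vimentin, was the member called lower (-0.59 ± 0.092, adjusted p = 3.58e-06). Tubulin genes are close in sequence, and a probe set may read more than 1 of them.

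The largest increase among the genes named for their size was that of Nabp1, a single-stranded DNA binding protein of the repair machinery. It gave 3749, 3276, 4412, 4027 and 4026 in DMSO and 12442, 15732, 15379.9, 13847 and 12575 at 100 uM, a log2 fold change of 1.84 ± 0.075 (adjusted p = 6.96e-19), or 3.59-fold. Rragd, a Rag GTPase that links amino acid supply to mTORC1 at the lysosome, gave 809, 575, 969, 665 and 544 against 2492, 2029.6, 2537, 2200.0 and 2357 (1.73 ± 0.11, adjusted p = 5.88e-14). Gpnmb, a lysosomal glycoprotein, gave 6828, 6780.2, 10842, 9489 and 9672 against 23979, 24966, 26083, 23936 and 23729.5 (1.52 ± 0.099, adjusted p = 4.38e-14). In each of these 3 genes the dimmest treated well was over 2 times as bright as the brightest DMSO well.

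Zfand2a, a zinc finger protein that binds the proteasome under stress, gave 3766, 3891, 3023, 3749 and 4310.0 in DMSO and 11839, 11990.2, 9700.4, 9248 and 9556 at 100 uM (1.48 ± 0.11, adjusted p = 2.74e-12). Rab30, a small GTPase of the Golgi, changed by 1.44 ± 0.082, and Dennd5a, an exchange factor for Rab proteins, by 1.51 ± 0.11. Fosl1, the AP-1 subunit FRA1, gave 496, 567, 377, 684 and 646 in DMSO and 1469, 1575, 1969, 1622 and 1581 at 100 uM (1.59 ± 0.15, adjusted p = 2.41e-10). Its DMSO wells lay near the array medians. Grm8, Prc1 and Txnl4b were also named by the rule, but their wells were dim and spread widely, with log2 fold changes of 1.64 ± 0.45, 1.55 ± 0.48 and 1.51 ± 0.37. The call for Prc1 was lost without DMSO replicate 4 (adjusted p = 0.0529).

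Of the p53 target genes 11 of 23 were called higher and 2 lower (median 0.22), and with arrays centred on their medians 8 were called higher and 1 lower. Mdm2, the ligase that removes p53 and is itself induced by it, gave 3601, 3919, 3752, 4027 and 4209 in DMSO and 10209, 9307, 9384, 9028 and 9361 at 100 uM (1.28 ± 0.06, adjusted p = 1.89e-17). Both of its other probe sets past the filter were called in the same direction. Sfn, the 14-3-3 protein that holds cells before mitosis, gave 1867, 2044, 2475, 2723 and 2227 against 7215, 7835, 6846, 6097 and 6141 (1.60 ± 0.098, adjusted p = 9.47e-15). Aen, a nuclease of apoptosis, gave 2073, 2050.1, 1981, 1999.5 and 2151 against 4775, 4923, 5340.2, 4796 and 4665 (1.26 ± 0.068, adjusted p = 3.61e-16). For each of these 3 genes every treated well lay above every DMSO well.

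Ccng1, cyclin G1, changed by 0.71 ± 0.069, and Gadd45a, a DNA damage responsive gene, by 0.49 ± 0.092. Cdkn1a, which encodes the cell cycle inhibitor p21, did not pass the threshold: its signals were 4855, 5129, 4789.5, 4645 and 4395 in DMSO and 5083, 5209, 5783, 5719 and 6050.0 at 100 uM (0.22 ± 0.091, adjusted p = 0.0538). Its other probe set was called higher, and the mean of its probe sets gave 0.52 (adjusted p = 1.74e-06). In all, 10 of the 23 alternatives called it higher, so the call for this gene depends on the probe set and on other settings. Fas, a death receptor, was called with a small size (0.24 ± 0.086, adjusted p = 0.0295), but the mean of its probe sets gave -0.086 (adjusted p = 0.749). Sesn1, a sestrin that restrains mTORC1, was called lower, from 2767, 2870.2, 2749, 3007 and 3164 to 1548, 1785, 2323, 2093 and 2429.6 (-0.53 ± 0.10, adjusted p = 7.16e-05, or -0.32 as the mean of its probe sets).

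The p53 half-site, the 10-base motif that p53 binds in pairs, was sought on both strands of the 250 bases before the start of each gene in RefSeq promoters of the GRCr8 build. It was present in 6 of the 19 tested p53 genes that had a promoter in the table, against 5.6% of the promoters of all tested genes and 6.6% of all 27457 promoters of that length. Of the 9 such genes that rose, 3 held it (Aen, Ccng1 and Gadd45a). The others with the motif were Cdkn1a, which was not called, and both list members called lower, Sesn1 and Ei24, a protein of the endoplasmic reticulum (-0.18 ± 0.055, adjusted p = 0.011, or 0.0513 with arrays centred on their medians). The stretches around the match are shown for 5 of the 6 genes, with the motif in capitals, to set the letters of genes that rose and of a gene that fell beside the values above. They lie at chr1:142224483-142224532 (+ strand), chr10:25685079-25685126 (- strand), chr4:97486818-97486867 (- strand), chr20:7150711-7150760 (+ strand) and chr20:46948527-46948576 (+ strand), and the Ccng1 stretch also holds the heat shock letters described next, without overlap. A match in this window is a description and no site of binding.
Aen: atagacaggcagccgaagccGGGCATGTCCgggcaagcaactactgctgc
Ccng1: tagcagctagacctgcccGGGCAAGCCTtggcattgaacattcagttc
Gadd45a: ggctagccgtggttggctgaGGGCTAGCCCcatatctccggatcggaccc
Cdkn1a: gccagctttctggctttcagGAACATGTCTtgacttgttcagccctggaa
Sesn1: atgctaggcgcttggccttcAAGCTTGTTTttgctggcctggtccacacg

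Of the heat shock genes 12 of 21 were called higher and 0 lower (median 0.25). Hspb8, a small chaperone that directs misfolded proteins to autophagy, gave 23123, 23224, 24325, 21845 and 22758 in DMSO and 34297, 38815, 37356, 33805 and 35147 at 100 uM (0.64 ± 0.047, adjusted p = 9.01e-13). Chordc1, a partner of HSP90, gave 5623, 6252, 6287, 6221 and 6487 against 9561, 9183, 9604, 8919 and 9334 (0.60 ± 0.052, adjusted p = 3.71e-11). Dnajb1, the HSP40 that stimulates HSP70, changed by 0.46 ± 0.069, and Hsph1, a nucleotide exchange factor of HSP70, by 0.61 ± 0.12. The small chaperone Hspb1 changed by 0.49 ± 0.11 and Bag3, the co-chaperone that works with Hspb8, by 0.32 ± 0.073. Every member called in this list was higher.

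The heat shock element as searched, GAANNTTC, reads the same on both strands. It was present in the 250 bases before the start of 10 of the 17 tested heat shock genes with a promoter in the table, and in 6 of the 10 that rose, against 4.8% of the promoters of tested genes and 7.0% of all promoters. Stretches from 5 of the genes that rose are shown with the element in capitals, and that of Hspb1 holds it 2 times. The coordinates, on GRCr8, are chr12:10427317-10427364 (+ strand), chr19:41431142-41431172 (- strand), chr12:26432383-26432450 (- strand), chr12:45837265-45837307 (+ strand) and chr1:192533308-192533355 (+ strand). The element was also present before genes that were not called, among them Fkbp4, an HSP90 co-chaperone (-0.051 ± 0.06, adjusted p = 0.559).
Hsph1: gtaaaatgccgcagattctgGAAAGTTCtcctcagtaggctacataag
Dnajb1: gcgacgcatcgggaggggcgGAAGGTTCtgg
Hspb1: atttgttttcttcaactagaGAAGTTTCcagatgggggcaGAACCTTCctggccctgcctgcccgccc
Hspb8: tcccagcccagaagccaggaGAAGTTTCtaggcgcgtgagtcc
Bag3: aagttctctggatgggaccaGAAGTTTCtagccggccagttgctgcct

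Chaperones of the endoplasmic reticulum did not follow. Of these 12 of 25 were called lower and 1 higher. Herpud1, of the degradation machinery of this compartment, gave 13380.4, 12176, 13366, 12538 and 13372 in DMSO and 8109.9, 8307, 8466, 7889 and 8189 at 100 uM (-0.66 ± 0.049, adjusted p = 8.05e-13). Edem1, which hands misfolded glycoproteins to that machinery, changed by -0.63 ± 0.062 and Hsp90b1, the resident HSP90, by -0.40 ± 0.055. Hspa5, the main chaperone BiP, was not called (-0.062 ± 0.062, adjusted p = 0.478), with 41816, 38884, 43802, 38623 and 45675 in DMSO and 41557, 42321, 39035, 37322 and 39528 at 100 uM. Dnajc3, an HSP40 of this compartment, was the member called higher (0.21 ± 0.051), a call lost with arrays centred on their medians (adjusted p = 0.0843).

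Proteasome genes rose in 25 of 44 cases and fell in 2, and with arrays centred on their medians 16 rose. The sizes were small: Psmd5, an assembly chaperone, changed by 0.51 ± 0.055, Psmd4, a ubiquitin receptor, by 0.50 ± 0.061, and the core subunit Psma5 by 0.44 ± 0.062. Psmd5 gave 9445, 9291, 10709.9, 10722 and 10715 in DMSO and 15299.7, 14690.1, 14908, 14196 and 13280.0 at 100 uM, with no overlap. Of the autophagy genes 5 of 15 were called higher and 2 lower, but 2 were called higher with arrays centred on their medians or without 100 uM replicate 4, and 7 without the 3 uM arrays. Among the called genes were Gabarapl1, which coats autophagosomes, at 0.50 ± 0.047 and Ulk1, the kinase that starts the process, at -0.69 ± 0.11 (-0.40 as the mean of its probe sets). Of the lysosome genes 10 of 33 were called higher (30.3%) and 4 lower (12.1%), with a median of 0.059. The shares of all genes were 19.8% and 15.8%, and 29.1% of the 2556 brightest genes were called higher, near the share of this list. With arrays centred on their medians 7 lysosome genes were called higher. Dnase2b, a lysosomal nuclease, gave 5764, 5557, 6532, 4958 and 5019.7 in DMSO and 11991, 12994, 13538, 13295 and 14266 at 100 uM (1.25 ± 0.097, adjusted p = 2.60e-12), the progranulin gene Grn changed by 0.78 ± 0.079 and Npc2, a cholesterol carrier, by 0.56 ± 0.051.

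Of the NRF2 targets 11 of 19 were called higher and 1 lower (median 0.25), and with arrays centred on their medians 7 were called higher. Gpx2, a glutathione peroxidase, gave 8458, 7774, 11065, 11140.1 and 10829.9 in DMSO and 15222, 16284, 16491, 15239 and 13458 at 100 uM (0.65 ± 0.082, adjusted p = 9.58e-08). Hmox1, heme oxygenase, changed by 0.46 ± 0.068 and Gclc, which limits glutathione synthesis, by 0.35 ± 0.084. Nqo1, often taken as the model target, was not called (0.071 ± 0.06, adjusted p = 0.39), with overlapping signals of 36158, 36195, 41546, 37102 and 37068 and 40338, 45521, 40429, 37931 and 33996. Gss, the second enzyme of glutathione synthesis, was the member called lower (-0.23 ± 0.061). The antioxidant response element as searched, TGACNNNGC, was present before 2 of 17 tested members, Gpx2 and Gclm, against 12.8% of the promoters of tested genes. Antioxidant enzymes outside that list were called lower in 4 of 16 cases and higher in 0 (median -0.038), Cat, catalase, among them (-0.24 ± 0.078). Of all genes 15.8% were called lower, and of the 2556 brightest genes 23.9%, near the share of this list. The count of lower calls thus does not set these enzymes apart.

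The ATF4 list split, with 13 of 29 genes called higher and 8 lower. Without 100 uM replicate 2, or without replicate 4, 5 genes of the list were called lower. Ddit3, the stress factor CHOP, gave 2655, 2839.9, 2788, 2321 and 2468 in DMSO and 5118, 5129, 5787, 5381 and 6087 at 100 uM (1.07 ± 0.072, adjusted p = 8.82e-14). Gdf15, a secreted stress cytokine, gave 579, 617, 664, 671 and 886 against 1811, 1688, 1849, 1423 and 1425 (1.27 ± 0.17, adjusted p = 2.32e-07). Atf3, a stress-induced repressor, changed by 0.77 ± 0.082, Slc3a2, the shared chain of amino acid exchangers, by 0.56 ± 0.048, Asns, asparagine synthetase, by 0.45 ± 0.07 and Atf4 itself by 0.30 ± 0.071. Gpt2, the mitochondrial alanine aminotransferase, was called lower (-0.89 ± 0.13, adjusted p = 2.50e-06, or -0.48 as the mean of its probe sets). The element shared by ATF4 and CHOP, searched as TGATGNAA on both strands, was present before 5 of 24 tested members and 1 of the 11 that rose, against 1.8% of the promoters of tested genes.

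Of the 56 lists ribosome biogenesis had the largest share called higher, 31 of 42, with 0 lower and a median of 0.37. Gnl3, nucleostemin, gave 6556, 6800.2, 7617, 6572 and 7482 in DMSO and 11246, 10497, 11049, 10042 and 10567 at 100 uM (0.61 ± 0.07, adjusted p = 1.54e-08). Nop56 and Nop58, core proteins of the particles that methylate ribosomal RNA, changed by 0.58 ± 0.055 and 0.43 ± 0.05, and Mrto4, a factor of the large subunit, by 0.58 ± 0.068. The lowest log2 fold change of the 42 tested members was 0.01 and the highest 0.65, so the shift was small in each gene. Structural proteins of the cytosolic ribosome were called higher in 6 of 42 cases, or 14.3% against 19.8% of all genes. That count was 1 with arrays centred on their medians and 19 with quantile normalization, so the number of calls depends on the scaling, and no member was called lower under any of the 3. Myc, a regulator of ribosome production, was not called (0.21 ± 0.097, adjusted p = 0.0868), though 2 alternatives called it higher (adjusted p down to 0.0316). The E-box CACGTG was present before 7 of 39 tested members and 4 of the 28 that rose, against 8.6% of the promoters of tested genes.

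Related biosynthetic genes rose in part. Of the tRNA synthetases 9 of 19 rose and 1 fell (6 rose with arrays centred on their medians). Sars1, for serine, changed by 0.82 ± 0.086 and Nars1, for asparagine, by 0.48 ± 0.06. Of the nucleotide genes 9 of 17 rose and 3 fell (4 rose with arrays centred on their medians). Ctps1, which makes CTP, gave 1587, 1280.3, 1608, 1894 and 1873 in DMSO and 3871, 2810.3, 3468, 3279 and 2989 at 100 uM (1.00 ± 0.12, adjusted p = 2.45e-08), and Prps1, which makes the ribose donor, changed by 0.86 ± 0.087. The members called lower included Xdh and Uox, which break purines down, at -1.54 ± 0.11 and -0.49 ± 0.082. Of the polyamine genes 5 of 13 rose and 1 fell (3 rose with arrays centred on their medians), with Azin1, which frees ornithine decarboxylase from its inhibitor, at 0.77 ± 0.06 (0.45 as the mean of its probe sets), Sms, spermine synthase, at 0.74 ± 0.11 and Agmat, agmatinase, at -0.87 ± 0.09.

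Of the cell cycle and replication genes 18 of 34 were called higher and 2 lower (median 0.42). In 11 of the 34 every treated well lay above every DMSO well, against 14.5% of all genes. A further 11 listed genes did not pass the filter. A gene dim in DMSO could pass it through treated wells alone, so the filter can tilt this share and median upward. Pcna, the sliding clamp of replication and repair, gave 8735, 9262, 9306, 8898 and 8808 in DMSO and 14350.4, 15289.6, 16113, 13374 and 14595 at 100 uM (0.71 ± 0.062, adjusted p = 3.97e-11). Prim1, the primase, changed by 0.78 ± 0.066, the clamp loader subunit Rfc2 by 0.76 ± 0.12 and the kinase subunit Cks2 by 0.84 ± 0.078. Tk1, thymidine kinase, was called lower (-0.47 ± 0.093, adjusted p = 0.000139). Mitotic markers were dim: Mki67, Top2a, Ccna2 and Cdk1 did not pass the filter on low signals, so they were not among the genes tested. In the fit without that filter Ccna2 changed by 1.25 (adjusted p = 0.0244) and Cdk1 by 2.15 (adjusted p = 0.0294), and Mki67 (0.72, adjusted p = 0.288) and Top2a (0.42, adjusted p = 0.733) were not called. Cdk1 lay between 12.1 and 232 in DMSO and between 244 and 502 at 100 uM, without overlap, and Ccna2 between 52.5 and 156 and between 135 and 293, with overlap.

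**Figure D4:**
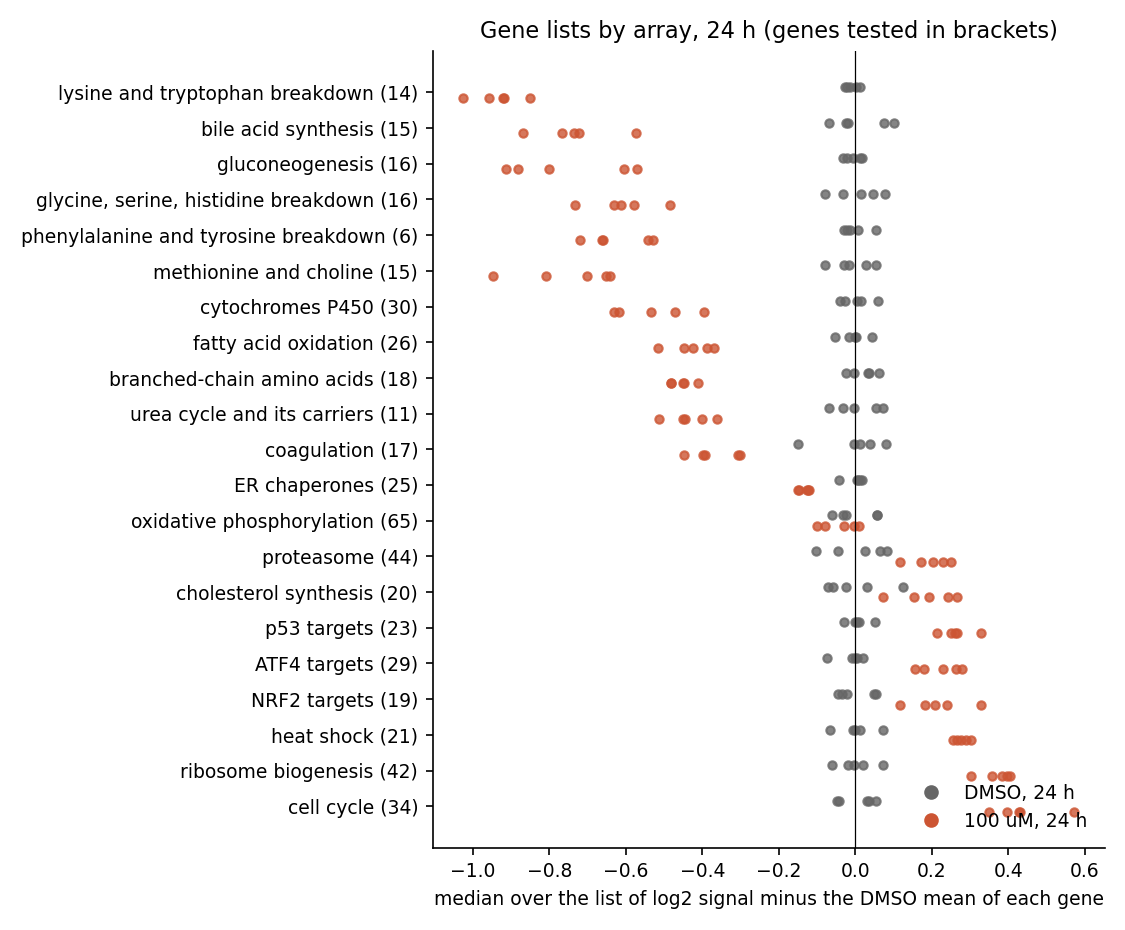
Median over each gene list of the log2 signal minus each gene's DMSO mean, for every DMSO well (grey) and every 100 uM well (orange) at 24 h, with the number of tested genes in brackets. The 100 uM wells lie between -1.03 and -0.85 for lysine and tryptophan breakdown and between 0.30 and 0.41 for ribosome biogenesis, while the oxidative phosphorylation values of the groups overlap.

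Methapyrilene blocks the histamine H1 receptor, but the genes of histamine were hardly measurable here. Hrh1, Hrh2, Hrh4, Hdc and Hnmt did not pass the filter. Maob and Maoa, the amine oxidases that act on a product of histamine, changed by -0.54 ± 0.071 (adjusted p = 1.64e-07) and -0.18 ± 0.068 (adjusted p = 0.0387), and 8 alternatives did not give the call of Maoa (adjusted p up to 0.114). Of the fetal and preneoplastic markers 1 of 10 was called higher and 0 lower. Gstp1, the placental transferase used to mark preneoplastic foci in rat liver, gave 35184, 35120.3, 40469.9, 36699 and 40547 in DMSO and 39238, 45163, 39727, 34288 and 33707 at 100 uM (0.026 ± 0.079, adjusted p = 0.842), and Afp, alpha-fetoprotein, was not called either (-0.18 ± 0.083, adjusted p = 0.0882). For Afp 3 alternatives did give a call (adjusted p down to 0.0206). Akr1b8, an aldo-keto reductase, was the member called (0.46 ± 0.15, adjusted p = 0.0141), with overlapping wells and a call that 2 alternatives did not give (adjusted p up to 0.0638).

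Markers of cell types were summed in each array. The hepatocyte markers, of which 11 of 12 had a probe set, summed to 506307 to 611501 in DMSO and to 483400 to 598175 at 100 uM, and Alb was the brightest. Of the 11 tested genes, 5 were called lower (45.5%) and 0 higher: Cps1, Cyp2e1, Hnf4a and Tat, given above, and Fga, a fibrinogen chain (-0.44 ± 0.064, adjusted p = 1.30e-06, or -0.82 as the mean of its probe sets). The part of this in the results was not tested. The Kupffer cell and leukocyte markers summed to 10781 to 13178 and to 11273 to 12488, with Cd163, Adgre1 and Ptprc at or below the array medians on all 10 arrays. Cd68, a lysosomal protein and macrophage marker, was called higher (0.86 ± 0.12, adjusted p = 7.33e-07) and Lyz2, lysozyme, lower (-0.29 ± 0.08, adjusted p = 0.00472). The sums of endothelial (919 to 1662 and 1106 to 1806) and stellate cell markers (3015 to 3488 and 3347 to 3949) overlapped between the groups. The cholangiocyte markers summed to 9925 to 11037 and to 11090 to 11967, nearly all of it from Epcam, with Krt19, Krt7, Spp1 and Cftr at or below the medians. This sum was higher in every 100 uM well than in any DMSO well, but the 2 tested markers went in opposite directions. Their log2 fold changes were 0.15, called higher, and -1.09, not called. The higher call was lost with arrays centred on their medians. The part of this sum in the results was not tested. In cultures measured as a whole, fewer cells of a type and less RNA per cell cannot be told apart.

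The 100 uM wells were also set directly against the 3 uM wells of the same time, which share no control with them. Here 2021 genes were called higher (19.8%) and 1949 lower (19.1%), or 38.8% in all. The 3 uM wells were not alike: replicates 1, 2 and 3 stood apart on the second principal component. Their beta-actin 3' to 5' ratios were 3.93, 5.10 and 5.30, against 2.91 and 3.28 in replicates 4 and 5, and the part of RNA length in the dose results was not tested beyond the covariate given here. Each value is therefore also given with replicates 4 and 5 alone, a setting chosen after seeing the data. With those 2 wells 1493 genes were called higher and 1262 lower, and with the beta-actin ratio as a covariate 2440 were called in all. The log2 difference of Bhmt, 100 uM minus 3 uM, was -2.12 ± 0.11 (adjusted p = 1.53e-16), or -2.46 ± 0.11 against the 2 wells. That of Nr1i3 was -2.13 ± 0.16, or -2.28 ± 0.22, and that of Nabp1 1.74 ± 0.075 (adjusted p = 9.12e-18), or 1.68 ± 0.10. Of the methionine and choline genes 12 of 15 were lower at 100 uM than at 3 uM (11 with the 2 wells), of the bile acid genes 12 of 15 (11) and of the P450 genes 17 of 30 (17). Of the ribosome biogenesis genes 24 of 42 were higher (25). The direction of these genes and lists was the same against either set of 3 uM wells, but other lists moved. The oxidative phosphorylation genes went from 10 higher and 5 lower to 0 and 21 with the 2 wells. The genes higher at 100 uM went from 30 to 2 for the cytosolic ribosome, from 34 to 11 for the mitochondrial ribosome and from 28 to 14 for the proteasome.

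At 3 uM against the same DMSO wells, 306 genes were called higher (2.99%) and 125 lower (1.22%), or 4.22% in all. With 3 uM replicates 4 and 5 alone, 0 were called higher and 4 lower by limma at an adjusted p under 0.05, and 954 had an unadjusted p under 0.05. The calls at 3 uM thus did not stand with those 2 wells alone. Fewer wells also leave less power to call a gene, and the part of each in this fall was not tested. Values at the 2 doses are given side by side because the DMSO wells are shared. Cyp1a1 changed by -0.64 ± 0.08 at 3 uM (-0.38 ± 0.079 with replicates 4 and 5) and -1.86 ± 0.08 at 100 uM. Slc10a1 changed by -0.47 ± 0.13 (-0.18 ± 0.15) and -1.61 ± 0.13, and Zfand2a by 0.48 ± 0.11 (0.11 ± 0.12) and 1.48 ± 0.11. In the direct comparison of the doses these 3 genes differed by -1.22 ± 0.08, -1.14 ± 0.13 and 1.00 ± 0.11, and by -1.48 ± 0.079, -1.43 ± 0.15 and 1.37 ± 0.12 against replicates 4 and 5.

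Timp3, an inhibitor of matrix proteases, changed by 0.45 ± 0.099 at 3 uM (0.12 ± 0.10, adjusted p = 0.747, with replicates 4 and 5) and 0.47 ± 0.099 at 100 uM, and its direct difference between the doses was 0.02 ± 0.099 (adjusted p = 0.896). Against 3 uM replicates 4 and 5 alone that difference was 0.34 ± 0.10 (adjusted p = 0.0107), so the comparison of Timp3 turns on which 3 uM wells are used. Bhmt was not called at 3 uM (-0.35 ± 0.11, adjusted p = 0.057), with -0.017 ± 0.11 from replicates 4 and 5.

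The effect of 100 uM at 24 h was tested against that at 48 h, each with its own DMSO wells. The change of the effect was called upward in 63 genes (0.616%) and downward in 106 (1.04%), or 1.65% in all. For reference, 100 uM against DMSO at 48 h gave 1932 genes called higher (18.9%) and 1483 lower (14.5%), or 33.4% in all. Hamp had the largest later rise among the genes named here, from 1.24 ± 0.14 at 24 h to 2.58 ± 0.14 at 48 h, a difference of 1.34 ± 0.20 (adjusted p = 0.000113). Otc fell further, from -0.90 ± 0.18 to -2.43 ± 0.18 (-1.53 ± 0.25, adjusted p = 0.000491), as did Slc10a1, from -1.61 ± 0.13 to -2.65 ± 0.13 (-1.04 ± 0.18, adjusted p = 0.000914). For Otc and Slc10a1 the decrease at 24 h was thus smaller than a day later.

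The P450 list held 7 genes whose effect was lower at 48 h, among them Cyp2d2 (-0.72 ± 0.091, adjusted p = 7.59e-06) and Cyp4a1 (-0.50 ± 0.13, adjusted p = 0.0409). Cyp1a1 and Cyp1a2 differed in opposite directions: the decrease of Cyp1a1 was smaller at 48 h (0.60 ± 0.11, adjusted p = 0.00223) and that of Cyp1a2 larger (-0.62 ± 0.14, adjusted p = 0.0112). Aass and Acox2 were less far below their controls at 48 h, with differences of 1.04 ± 0.13 (adjusted p = 7.59e-06) and 0.81 ± 0.14 (adjusted p = 0.000965). In DMSO alone Aass had a mean signal of 4304 at 24 h and 2536 at 48 h, so its reference level also differed between the times.

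Of the 20 tested cholesterol synthesis genes 5 had a lower effect at 48 h than at 24 h, and 1 was called higher and 8 lower at 48 h. Idi1 went from 0.63 ± 0.07 to 0.073 ± 0.07 (-0.56 ± 0.10, adjusted p = 0.00125), Msmo1 from 0.69 ± 0.077 to 0.042 ± 0.077 (-0.65 ± 0.11, adjusted p = 0.000653) and Cyp51 from 0.76 ± 0.079 to 0.27 ± 0.079 (-0.49 ± 0.11, adjusted p = 0.0142). In the ATF4 list 8 of 29 genes had a lower effect at 48 h, where 5 were called higher and 13 lower. Asns went from 0.45 ± 0.07 to 0.048 ± 0.07 (-0.40 ± 0.099, adjusted p = 0.0263). With arrays centred on their medians 58 genes, in place of 169, had a different effect at 48 h, and the calls for Cyp51, Cyp4a1 and Asns were among those lost.

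**Figure D5:**
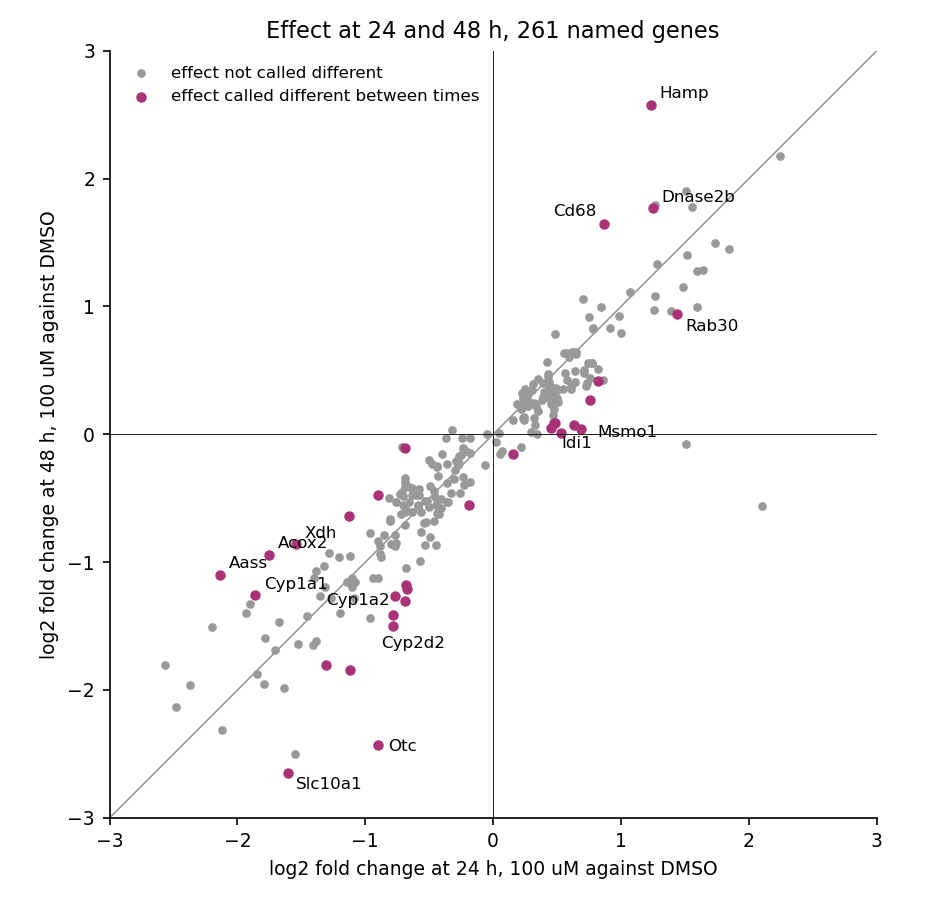
Log2 fold change of 100 uM against DMSO at 48 h against that at 24 h for the 261 genes chosen by the naming rule or named in the text, with the line of equal effect. Genes whose effect was called different between the times are purple; Hamp, Cd68 and Dnase2b lie above the line and Otc, Slc10a1 and Cyp2d2 below it.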

How the data were processed

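The deposited table holds 1 intensity per probe set and array, which the authors made with MAS5 per the submitters' processing notes. Each array's mean after trimming 2% at each end was 1500.54 to 1500.66, so the arrays share a global scale. Of 31099 probe sets 20826 carried 1 gene symbol in the platform annotation, 436 several and 9780 none. Signals were taken to log2 with no pseudocount. A probe set was kept when at least 5 of the 30 arrays exceeded their own median, and the brightest was used for each of 10222 genes, 2546 of which had several. The fit used limma 3.58.1 (R 4.3.3) on all 30 arrays (group means, 24 residual degrees of freedom, variance trend, Benjamini-Hochberg adjustment, two-sided, called under 0.05). It was also run on simulated data with far fewer changed genes than were called here, which does not probe the scaling. The number of arrays limits the precision. Genes were named by size (the 12 largest increases and decreases among called genes whose groups did not overlap and whose mean exceeded the array medians), by adjusted p within each of 56 lists (1323 genes, 1113 tested), or from a short list of regulators and markers. Outside the rule, Hsph1, Hspb1, Bag3, Fkbp4, Gclm and Ei24 were named for promoter matches and Gtse1, Ube2t and Cdca8 for their size, after their values were seen. The groups compared and the lists were chosen with earlier results of these data known. Promoter sequences came from RefSeq (GRCr8), matched by symbol. Alternatives covered scaling, filters, probe set choice, the variance model, single arrays, the beta-actin ratio and the array numbers.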

Additional observations from a re-analysis of the deposited data

Results flagged for a closer look

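In 402 pairs of a named gene and a group of 5 arrays, 17 had 1 array apart from the other 4, where chance alone flags about 1 in 20 groups. The high DMSO signals were those of Agmat (4065), Hao2 (6322) and Sms (1821) in replicate 4, Eci2 (13463) in replicate 1, and Nqo1 (41546) and Tuba4a (14375) in replicate 3. The low DMSO signals were those of Gls2 (1287) and Maob (5810) in replicate 3, and Hsd17b4 (14906) and Prc1 (98.5) in replicate 4. At 100 uM the high signals were those of Hgd (1052) in replicate 4, Slc10a1 (2338) in replicate 2 and Jun (8381) in replicate 5. The low ones there were those of Abcb11 (8121) in replicate 1, Cks2 (4483) and Diablo (5630) in replicate 4, and Pik3c2g (56.5) in replicate 3. These arrays were kept in every group mean.

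The effect of 100 uM differed between 24 and 48 h in 26 named genes, by limma's test of the difference itself. The change, as 48 h minus 24 h on the log2 scale, was upward for Hamp (1.34), Aass (1.04), Acox2 (0.81), Cd68 (0.78), Xdh (0.68), Cyp1a1 (0.60), Slc25a15 (0.59), Dnase2b (0.51), Gckr (0.50) and Mttp (0.43). It was downward for Otc (-1.53), Slc10a1 (-1.04), Gstt3 (-0.73) and Cyp2d2 (-0.72). Msmo1 (-0.65), Cyp3a18 (-0.63), Cyp1a2 (-0.62), Idi1 (-0.56), Cyp4a1 (-0.50), Lcat (-0.50) and Rab30 (-0.50) followed. The remaining genes were Cyp51 (-0.49), Asns (-0.40), Tubb6 (-0.40), Nars1 (-0.39) and Cyp3a23-3a1 (-0.37). Of the 26, 14 stayed called under all 22 alternatives at the same threshold.

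Probe sets without exactly 1 gene symbol took no part in the comparisons. Of 4025 such probe sets past the filter, 309 were called higher and 536 lower at 100 uM. The 3691 with no symbol gave 220 and 499, and the 334 with several symbols gave 89 and 37.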

How the results depend on the processing

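Of the 193 named genes called at 24 h, 182 stayed called in the same direction under all 23 alternatives at the same threshold, and the 11 others are given with their values above. Leaving out 1 array at a time gave 1813 to 1931 genes called higher, 1447 to 1579 lower, 3664 to 3966 between the doses and 118 to 170 between the times. With array numbers taken in runs of 6 as a replicate block, the counts were 2015, 1613, 3947 and 168, and the samples share only such a number. The 10 arrays alone gave 2093 and 1612, quantile normalization 2137 and 1677, a pseudocount of 16 gave 2036 and 1619, and the mean of the probe sets of each gene 1997 and 1522. Arrays centred on their medians gave 1447 higher and 1599 lower, so that 47.5% of the calls were higher in place of 55.6%, and the lists with small increases lost calls. The 3970 calls between the doses became 2440 with the beta-actin ratio as covariate. The 169 calls between the times became 63 at an adjusted p under 0.01, 261 with array weights, 58 with arrays centred on their medians and 258 without the 3 uM arrays at 24 h. The direction turned for Fas when its probe sets were averaged (-0.086, adjusted p = 0.749), and for Cdkn1a between the doses (-0.031 ± 0.091) with 3 uM replicates 4 and 5 alone (0.28, a setting chosen after seeing the data) and with its probe sets averaged (0.51). The cause of these moves was not tested. Signals near the array medians limit what can be said of dim genes.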

Other observations

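Several further gene groups are given here beside the shares of all genes, 19.8% called higher and 15.8% lower. Of the mitochondrial ribosome genes 20 of 73 were called higher (27.4%) and 3 lower, and with arrays centred on their medians 9 were called higher. Of the genes of mitochondrial protein import and quality control 11 of 25 rose (44.0%) and 1 fell, with 6 rising when arrays were centred on their medians. Tomm70, an import receptor of the outer membrane, changed by 0.44 ± 0.069 (adjusted p = 4.18e-06, or 0.26 as the mean of its probe sets), while Clpx, a chaperone subunit of a matrix protease, was the member that fell (-0.58 ± 0.06, adjusted p = 1.77e-09). Of the apoptosis genes 7 of 22 rose (31.8%) and 2 fell. Tnfrsf12a, the receptor of TWEAK, gave 8442, 8295, 9213, 8108 and 9186 in DMSO and 13742, 13454, 13253, 12351 and 14489.9 at 100 uM (0.64 ± 0.06, adjusted p = 1.73e-10). Mcl1, which holds apoptosis back, changed by 0.33 ± 0.051 (0.51 as the mean of its probe sets), and Diablo, which promotes it, by 0.39 ± 0.065. Both directions of that process were thus represented among the genes that rose.

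Of the immediate early genes 5 of 19 were called higher (26.3%) and 2 lower, near the shares of all genes. Maff, a small MAF factor, gave 3767, 3275, 2448, 2678 and 3267 in DMSO and 4261, 5111, 5751, 5447 and 4813 at 100 uM (0.73 ± 0.088, adjusted p = 3.70e-08). Jun, a partner of Fosl1 in AP-1, was called lower (-0.46 ± 0.063, adjusted p = 3.86e-07). Of the circadian clock genes 3 of 14 were called lower (21.4%, near the share of all genes) and 0 higher, with Npas2 at -0.90 ± 0.13 (adjusted p = 8.75e-07) and Per2 at -0.50 ± 0.12 (adjusted p = 0.00116). Fn1, fibronectin, changed by -0.48 ± 0.068, from 39003, 37222, 37765, 32884 and 39884 to 28472, 25571, 25301, 24984 and 29422 (adjusted p = 8.24e-07).

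Some of the largest log2 increases were in genes too dim for the naming rule, and the following were picked after their values were seen. Gtse1, a mitotic protein that restrains p53, gave 77.7, 24.1, 228, 22.5 and 24.4 in DMSO and 265, 406, 685, 367 and 153 at 100 uM (2.82 ± 0.80, adjusted p = 0.00527). Ube2t, a ubiquitin-conjugating enzyme of the Fanconi anaemia repair pathway, gave 55.4, 160.3, 162, 48.1 and 44.5 against 265, 329, 383, 422 and 514 (2.24 ± 0.62, adjusted p = 0.00464). Cdca8, a component of the chromosomal passenger complex of mitosis, gave 90.7, 167, 82.9, 255 and 77.7 against 190.2, 460.1, 510.1, 859.5 and 936 (2.10 ± 0.62, adjusted p = 0.00802). The DMSO wells of these genes lay below the array medians, so the genes passed the filter only through other wells, 100 uM wells among them. Genes admitted and picked in this way tend to look raised, so their values are no test of an increase. The groups of Gtse1 and Cdca8 overlapped, and the size of the fold changes is uncertain.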
